A study of Mus musculus with 13 samples.

Results

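Counts of 10 KCTD genes were read in full-thickness skin of P4 mice (postnatal day 4). They are *Kctd1* and *Kctd15*, which the mutant mice were bred to lose in keratinocytes, and 8 paralogs whose loci were not targeted (*Kctd2*, *Kctd5*, *Kctd8*, *Kctd10*, *Kctd11*, *Kctd12*, *Kctd16* and *Kctd17*). The members were chosen by gene name and make up 10 of the 49315 genes in the count tables. 3 libraries came from WT mice and 3 from littermates labelled DKO, whose genotype is K14Cre+Kctd1fl/flKctd15fl/fl, so that both alleles of both genes are floxed and Cre is driven by the keratin 14 promoter. This promoter acts in keratinocytes of the epidermis and its appendages, whereas whole skin also holds fibroblasts, fat, vessels, nerves, muscle and immune cells in which the floxed alleles stay intact. The labels do not give the alleles that the WT mice carry. They give 1 identifier per library and do not say whether mice were pooled, so p-values measure the spread between these samples. The other 7 libraries of the series, from epidermis of 3-week-old K14Cre+Kctd15fl/fl (3 libraries) and K14Cre+Kctd1fl/flKctd15fl/fl mice (4 libraries), hold a count of 0 for every gene in the tables used here, and no result is given for them.

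KCTD proteins share an N-terminal BTB domain, through which they assemble with themselves or with close relatives, and differ in their C-terminal parts. Many serve as substrate adaptors of the ubiquitin ligase built on cullin 3 (CUL3). KCTD8, KCTD12 and KCTD16 instead bind GABA-B receptors as auxiliary subunits. KCTD1 and KCTD15 are known as repressors of the AP-2 transcription factors, which are prominent in epidermis and neural crest, and human mutations in either gene affect the skin of the scalp.

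The coding sequences of the members were compared within and between groups of relatives that were not derived from these identities. Over aligned coding bases of the GENCODE M21 transcripts (GRCm38), *Kctd1* (798 coding bases) and *Kctd15* (852 coding bases) were identical at 73.1%. The 3 pairs within *Kctd2*, *Kctd5* and *Kctd17* were identical at 72.0% to 75.5%, and the 3 pairs within *Kctd8*, *Kctd12* and *Kctd16* at 67.7% to 72.7%. The other 38 of the 45 pairs lay between 54.5% and 66.8%. The longest run of bases that transcripts of *Kctd1* and *Kctd15* share was 18, and no stretch of 100 bases of any member occurred in another member, against a read length of 150 bases.

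In the transcripts *Kctd1*-201 and *Kctd15*-201, exons 2 to 4 of *Kctd1* run parallel to exons 4 to 6 of *Kctd15*, with 75.6%, 75.2% and 71.6% identical bases. The study's methods name exon 3 of *Kctd1* and exon 4 of *Kctd15* as floxed, without naming a transcript. Numbered by *Kctd1*-201 and *Kctd15*-201, these exons are 145 and 176 bases long. In *Kctd15*-203, another coding transcript, exon 4 is instead the 145 bases at chr7:34644838-34644982, which are exon 5 of *Kctd15*-201. Which of them the allele lacks was not tested, and what follows uses the numbering of *Kctd1*-201 and *Kctd15*-201. Under this numbering the named exons are not counterparts. Exon 3 of *Kctd1* pairs with exon 5 of *Kctd15*, also 145 bases long, and exon 4 of *Kctd15* pairs with exon 2 of *Kctd1*, 179 bases long. Exon 4 of *Kctd15*-201, GRCm38 chr7:34649956-34650131 on the minus strand, is coding throughout. It is shown as the stretch that the allele loses under this numbering. The join that its removal leaves between exons 3 and 5 is shown too, where capitals mark the first in-frame stop codon.
Kctd15 exon 4: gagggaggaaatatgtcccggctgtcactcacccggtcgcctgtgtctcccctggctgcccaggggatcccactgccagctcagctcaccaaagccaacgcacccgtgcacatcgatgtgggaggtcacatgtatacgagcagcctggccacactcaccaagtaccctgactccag
Kctd15 exon 3 joined to exon 5: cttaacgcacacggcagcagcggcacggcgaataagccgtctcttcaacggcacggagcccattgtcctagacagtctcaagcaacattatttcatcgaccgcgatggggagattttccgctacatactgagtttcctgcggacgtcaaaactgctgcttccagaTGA
The second sequence begins with the last 30 bases of exon 3. Exon 4 leaves 2 bases over whole codons, so the reading frame shifts at the join. The stop follows after 135 further bases, so that the frame holds 67 codons in place of 283. In *Kctd1*, exon 3 leaves 1 base over whole codons, and without it the frame stops after 122 codons in place of 265. All other exons of both genes remain in such transcripts. Under the numbering used here, the floxed exon is 4.04% of the counted length of *Kctd1* and 4.15% of that of *Kctd15*. A count per gene therefore shows neither its loss nor whether a library is labelled correctly. The study's methods report that RNA-Seq showed efficient removal of each floxed exon in epidermal sheets of the single mutants. They report the same for the double mutants, without naming the P4 libraries. DKO and WT stand for the labels throughout.

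The 6 libraries held 11263863 to 17643043 counts. A count of 3, used as the floor, equalled 0.170 to 0.266 CPM. All counts were scaled together (edgeR, TMM) and DKO was compared with WT over the 20168 genes that passed the filter on low counts, among them 8 of the 10 members. 14 genes, 0.0694% of those tested, had an adjusted p under 0.05, and the share was the same 0.0694% when an absolute log2 fold change over 1 was also required. The shallowest library, DKO replicate 1, also had the highest summed counts of skeletal muscle markers and the lowest of hair follicle markers.

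*Kctd1* (ENSMUSG00000036225, GRCm38 chromosome 18, 14968685 to 15151446, minus strand) had normalized counts of 443, 410 and 442 in the WT libraries and of 506, 985 and 735 in the libraries labelled DKO. Each DKO value lay above each WT value, and DKO replicate 1 lay nearest to WT. The means were 432 ± 19.0 (SD, n = 3) and 742 ± 240 (SD, n = 3). DKO differed from WT by 0.78 on the log2 scale (SE 0.22, 95% interval 0.29 to 1.27), which did not pass the threshold (adjusted p = 0.342, edgeR).

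*Kctd15* (ENSMUSG00000030499, chromosome 7, 34639014 to 34656732, minus strand) had normalized counts of 736, 737 and 763 in WT skin and of 1131, 1509 and 1325 in skin labelled DKO. The groups were again separate, and the lowest DKO library was again replicate 1. The means were 745 ± 15.5 and 1321 ± 189 (SD, n = 3 each). The log2 fold change was 0.83 (SE 0.14, 95% interval 0.51 to 1.14), which ranked 32 by p among all tested genes and missed the threshold (adjusted p = 0.107, edgeR). Without DKO replicate 1, both genes passed it: the log2 fold change was then 0.98 for *Kctd1* (adjusted p = 0.0335, edgeR) and 0.91 for *Kctd15* (adjusted p = 0.0173, edgeR). *Kctd15* also passed with DESeq2, the tool of the study's methods (adjusted p = 6.32e-04), while *Kctd1* did not (adjusted p = 0.0783). In libraries whose labels carry the number 47347, 2 against 2, the log2 fold changes were 0.99 and 0.93 for *Kctd1* and *Kctd15*. In the single pair with the number 40972 the differences in log2 CPM were 0.19 and 0.57.

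**Figure D1:**
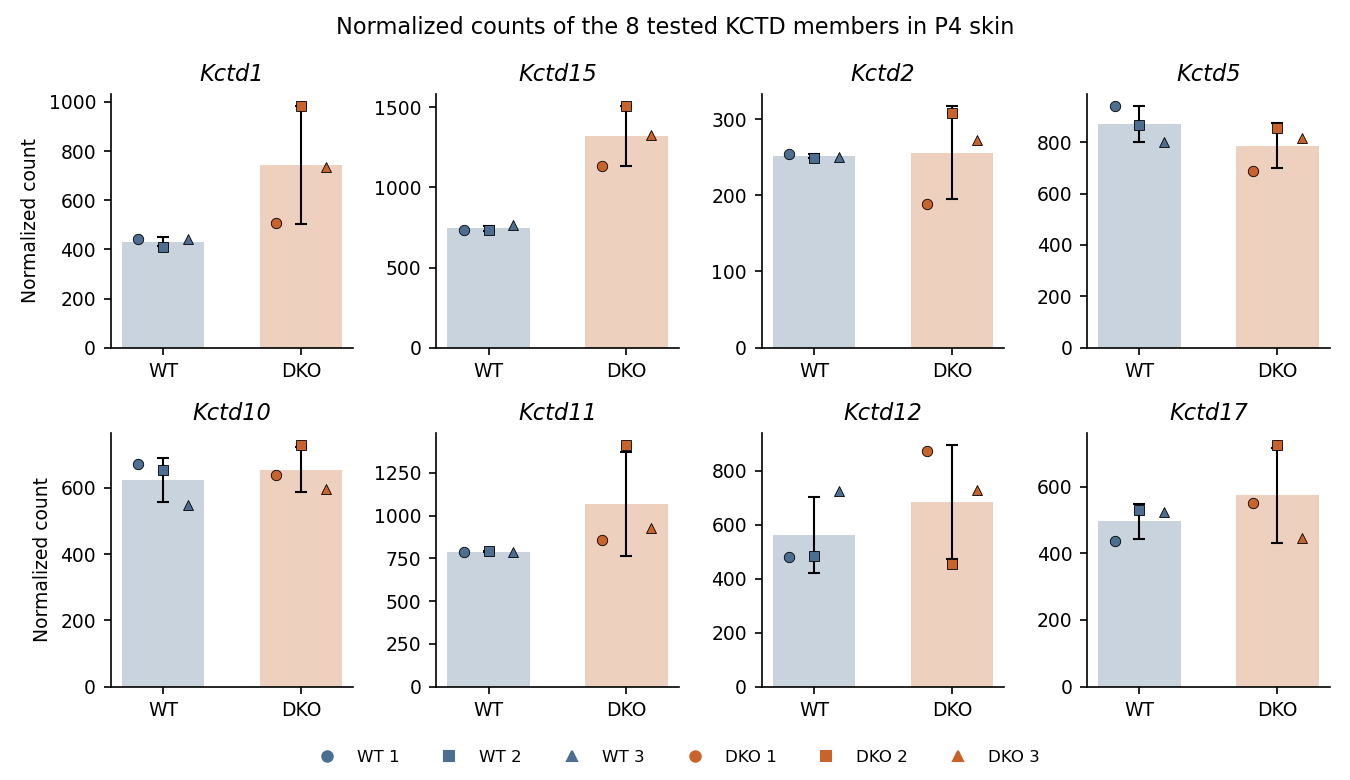
Normalized counts (scaled to the mean effective library size) of the 8 tested members in 3 WT and 3 DKO libraries of P4 skin. Bars are means, error bars are SDs and symbols are libraries; for *Kctd1*, *Kctd15* and *Kctd11* the 3 DKO values all exceed the 3 WT values, and DKO replicate 2 is the highest library for 6 of the 8 genes.

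The pair was compared within each library, which needs no scaling between libraries. Per kilobase of counted exons, the level of *Kctd15* was 1.41, 1.52 and 1.46 times that of *Kctd1* in the WT libraries, and 1.89, 1.30 and 1.53 times in the DKO libraries. The DKO ratios lay on both sides of the WT ratios. Counted exons pool those of all transcripts of a gene, so ratios, shares and orders per kilobase depend on which transcripts are present. The counted length of *Kctd1* is 3587 bases, and in GENCODE M21 exon 1 of *Kctd1*-202 alone holds 1851. Which transcripts the counts came from was not tested. The mean log2 ratio differed by 0.087 between the groups (p = 0.7, two-sided exact permutation test, for which 3 against 3 allows no p below 0.1), and without DKO replicate 1 the difference was -0.055.

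The pair accounted for 20.8%, 20.2% and 21.2% of the summed level per kilobase of the 10 members in WT skin, and for 26.0%, 30.2% and 30.8% in skin labelled DKO. The share was thus higher in each DKO library, with means of 20.7% ± 0.507 and 29.0% ± 2.60 (SD, n = 3). It is given without a test, since the members were chosen with earlier results known. The other 8 members summed to 1130, 1141 and 1131 normalized counts per kilobase in WT and to 1158, 1461 and 1160 in DKO libraries. Their sums in DKO replicates 1 and 3 were close to those of WT, and DKO replicate 2 stood above both.

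**Figure D2:**
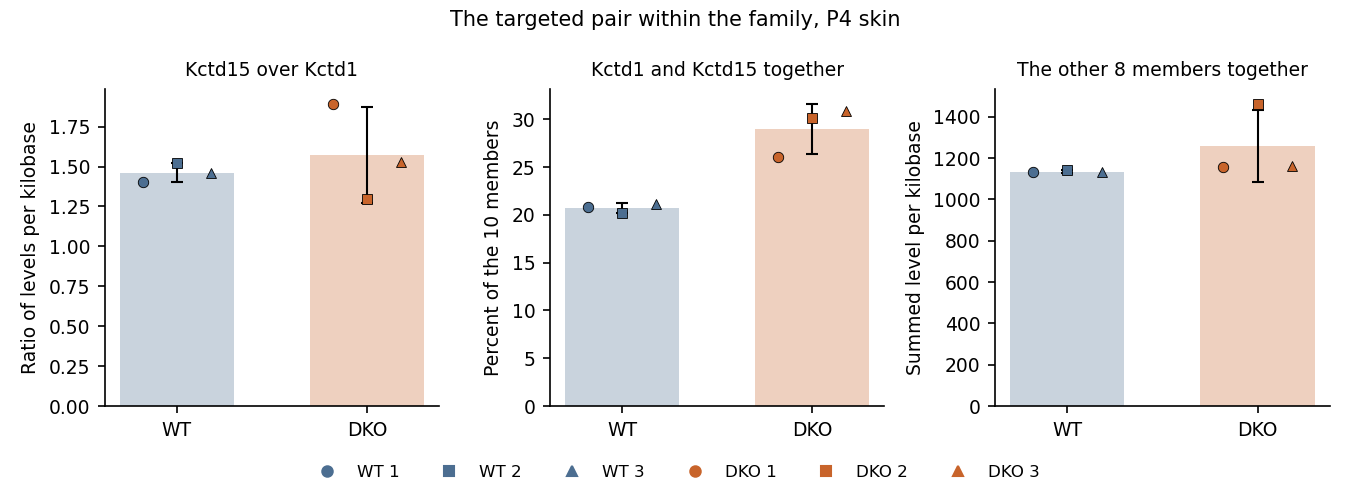
Left, the level of *Kctd15* per kilobase divided by that of *Kctd1* per kilobase; middle, both genes as a percent of the summed level per kilobase of the 10 members; right, the summed level per kilobase of the other 8 members, each in 3 WT and 3 DKO libraries of P4 skin. Bars are means, error bars are SDs and symbols are libraries; the ratios of the groups overlap, and the share runs from 20.2% to 21.2% in WT and from 26.0% to 30.8% in DKO libraries.

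Levels were ordered per kilobase of counted exons, and the order rests on these pooled lengths. In WT skin *Kctd5* was the highest at 317 ± 25.5 normalized counts per kilobase (SD, n = 3), above 88.4% of the tested genes. It was followed by *Kctd11* at 251 ± 0.918, *Kctd17* at 233 ± 24.5, *Kctd15* at 176 ± 3.65, *Kctd10* at 154 ± 16.6, *Kctd1* at 120 ± 5.29, *Kctd12* at 93.0 ± 23.2 and *Kctd2* at 83.6 ± 0.920. The ranges of *Kctd1* and *Kctd12* overlapped, as did those of *Kctd12* and *Kctd2*, and the other neighbours in this order were separate. *Kctd16* and *Kctd8* lay far below, at 2.91 ± 0.964 and 0.101 ± 0.174.

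In DKO skin *Kctd11* came first at 339 ± 96.8 and *Kctd15* second at 312 ± 44.7, before *Kctd5* at 286 ± 31.7, *Kctd17* at 269 ± 66.5 and *Kctd1* at 207 ± 66.8. The ranges of each of these overlapped those of the next, down to *Kctd10* at 162 ± 17.1. *Kctd12* at 113 ± 35.0 and *Kctd2* at 85.1 ± 20.5 overlapped each other. *Kctd12* shares 62.8% of its counted length with *Gm26778* and *Kctd10* 37.9% with *Myo1h*, both on the opposite strand, and whether counting used the strand is not given in the sources used here. Their levels and fold changes are therefore uncertain. All counts of a gene were also divided by only the length not shared, a scale chosen after the data were seen. The WT levels were then 260 ± 64.9 for *Kctd12* and 249 ± 26.8 for *Kctd10*, above *Kctd17* and *Kctd15*. These values are too high if reads of the shared length were counted, which was not tested.

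**Figure D3:**
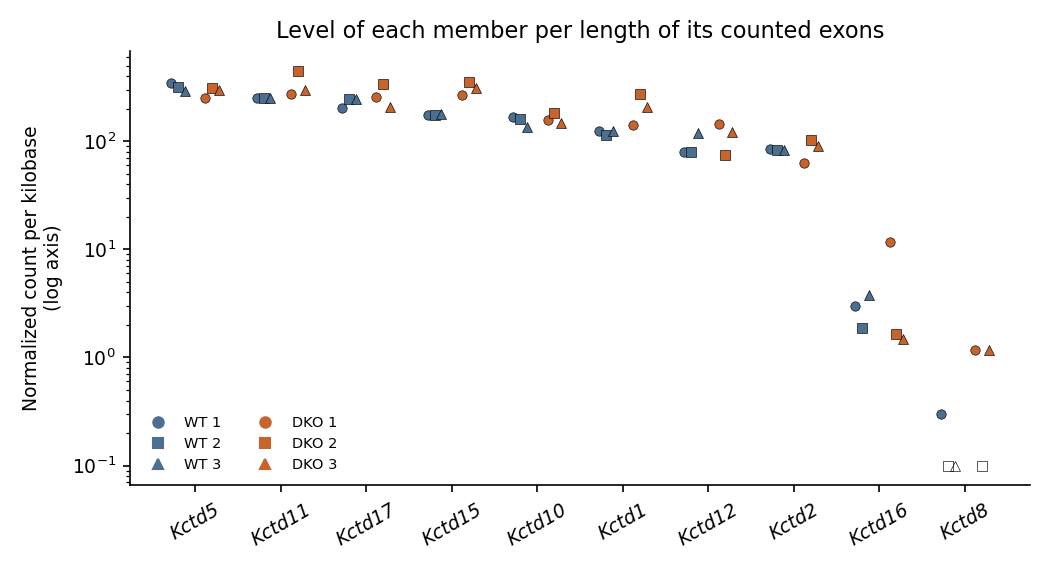
Normalized counts per kilobase of counted exons (log axis) of the 10 members in each library of P4 skin, ordered by their mean in WT. Open symbols mark libraries with a count of 0, drawn at 0.1; 8 members lie between 62.5 and 450.2, and *Kctd16* and *Kctd8* lie below 12.

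*Kctd2*, *Kctd5* and *Kctd17* encode a trio of CUL3 adaptors. KCTD5 directs the ligase to G protein βγ subunits, KCTD2 has been linked to the turnover of MYC, and KCTD17 to that of trichoplein, a brake on the formation of cilia. *Kctd5* (chromosome 17, 24047734 to 24073485, minus strand) had normalized counts of 943, 868 and 803 in WT and 689, 856 and 815 in DKO libraries. The groups overlapped, and *Kctd5* was the only tested member with a negative log2 fold change, -0.15 (95% interval -0.46 to 0.17, adjusted p = 0.926, edgeR).

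*Kctd2* (chromosome 11, 115420128 to 115431274, plus strand) had 255, 250 and 251 in WT and 188, 308 and 273 in DKO libraries. The WT values were nearly equal and the DKO values lay on both sides of them, with a log2 fold change of 0.03 (95% interval -0.40 to 0.46). *Kctd17* (chromosome 15, 78428564 to 78438909, plus strand) had 436, 529 and 524 in WT and 550, 726 and 445 in DKO libraries. These groups overlapped as well, and the log2 fold change was 0.21 (95% interval -0.22 to 0.63, adjusted p = 0.921, edgeR). Leaving out 1 library moved it between 0.0035 (without DKO replicate 2) and 0.36 (without DKO replicate 3).

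*Kctd10* (chromosome 5, 114363567 to 114380508, minus strand) encodes a CUL3 adaptor that acts on small GTPases of the cytoskeleton. Its normalized counts were 671, 654 and 547 in WT and 639, 730 and 595 in DKO libraries. The groups overlapped over most of their range, with a log2 fold change of 0.07 (95% interval -0.26 to 0.40, adjusted p = 0.965, edgeR).

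*Kctd11* (chromosome 11, 69878261 to 69881406, minus strand) encodes an adaptor that recruits CUL3 to the histone deacetylase HDAC1 and restrains Hedgehog signaling. It is counted over 1 exon. Its normalized counts were 786, 791 and 791 in WT and 858, 1416 and 926 in DKO libraries. The groups were separate, and DKO replicate 2 stood far above the rest. The log2 fold change was 0.44 (SE 0.19, 95% interval 0.01 to 0.86) and did not pass the threshold (adjusted p = 0.644, edgeR). Without DKO replicate 2 it was 0.18.

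Among *Kctd8*, *Kctd12* and *Kctd16*, the members that encode auxiliary subunits of the GABA-B receptor, only *Kctd12* passed the filter. *Kctd12* (chromosome 14, 102976581 to 102982637, minus strand) had normalized counts of 480, 484 and 726 in WT and 873, 456 and 729 in DKO libraries. High and low libraries occurred in both groups, and DKO replicate 2, the highest library for most members, was the lowest for *Kctd12*. The log2 fold change was 0.28 (95% interval -0.28 to 0.84, adjusted p = 0.917, edgeR). Leaving out 1 library moved it between 0.064 (without DKO replicate 1) and 0.51 (without DKO replicate 2).

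*Kctd8* (chromosome 5, 69109285 to 69341679, minus strand) had counts of 1, 0 and 0 in WT and 3, 0 and 4 in DKO libraries. *Kctd16* (chromosome 18, 40258361 to 40531168, plus strand) had counts of 4, 3 and 6 in WT and 12, 2 and 2 in DKO libraries. Neither was tested. The counts summed to 1 in WT and 7 in DKO for *Kctd8*, and to 13 and 16 for *Kctd16*, and 12 of the 16 lay in DKO replicate 1. A library without a count of *Kctd8* allows up to 0.170 to 0.201 CPM.

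No member passed an adjusted p of 0.05 in the edgeR test across all genes, and 1 of them, *Kctd15*, did so with DESeq2, beside 1.07% of all genes. *Kctd1*, *Kctd15* and *Kctd11* had an unadjusted p under 0.05, each with the higher values in DKO, which is 3 of 8 tested members beside 4.96% of all genes tested. The same 3 were the members whose groups did not overlap with DKO higher, beside 7.24% of all genes. None was without overlap and lower, beside 5.96% of all genes. The median log2 fold change was 0.24 over the 8 tested members and 0.14 over the 6 that were not targeted, beside 0.02 over all genes.

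The other 14 genes of the family in the list used here include adaptors of CUL3 such as *Kctd13* and *Tnfaip1*, relatives of *Kctd10* that act on RHOA, and *Kctd6* and *Kctd21*, relatives of *Kctd11* that act on HDAC1. 13 were tested, 7 with a positive and 6 with a negative log2 fold change. None passed an adjusted p of 0.05 in edgeR's test or had an unadjusted p under 0.05, none passed with DESeq2, no gene had groups without overlap, and the median log2 fold change was 0.01. *Tnfaip1* had the largest level of the list, at 484 ± 5.98 normalized counts per kilobase in WT and 487 ± 18.9 in DKO (SD, n = 3), with a log2 fold change of 0.01 (95% interval -0.24 to 0.26). *Kctd20* was next at 281 ± 8.20 and 294 ± 19.2 normalized counts per kilobase.

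*Kctd6* had the most negative log2 fold change of the list, -0.31 (95% interval -0.68 to 0.07), and *Kctd21* the most positive, 0.65 (95% interval -0.28 to 1.57), from normalized counts of 12.2, 27.2 and 44.5 in WT and 44.7, 47.4 and 40.8 in DKO libraries. The values of *Kctd21* varied more within WT than within DKO. *Kctd7*, *Kctd9*, *Kctd12b*, *Shkbp1* and *Kctd3* had log2 fold changes of -0.23, -0.19, -0.16, -0.09 and -0.09. *Kctd18*, *Kctd4*, *Kctd14* and *Kctd13* had 0.02, 0.03, 0.19 and 0.24. *Kctd19* had between 0 and 6 counts per library and was not tested.

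**Figure D4:**
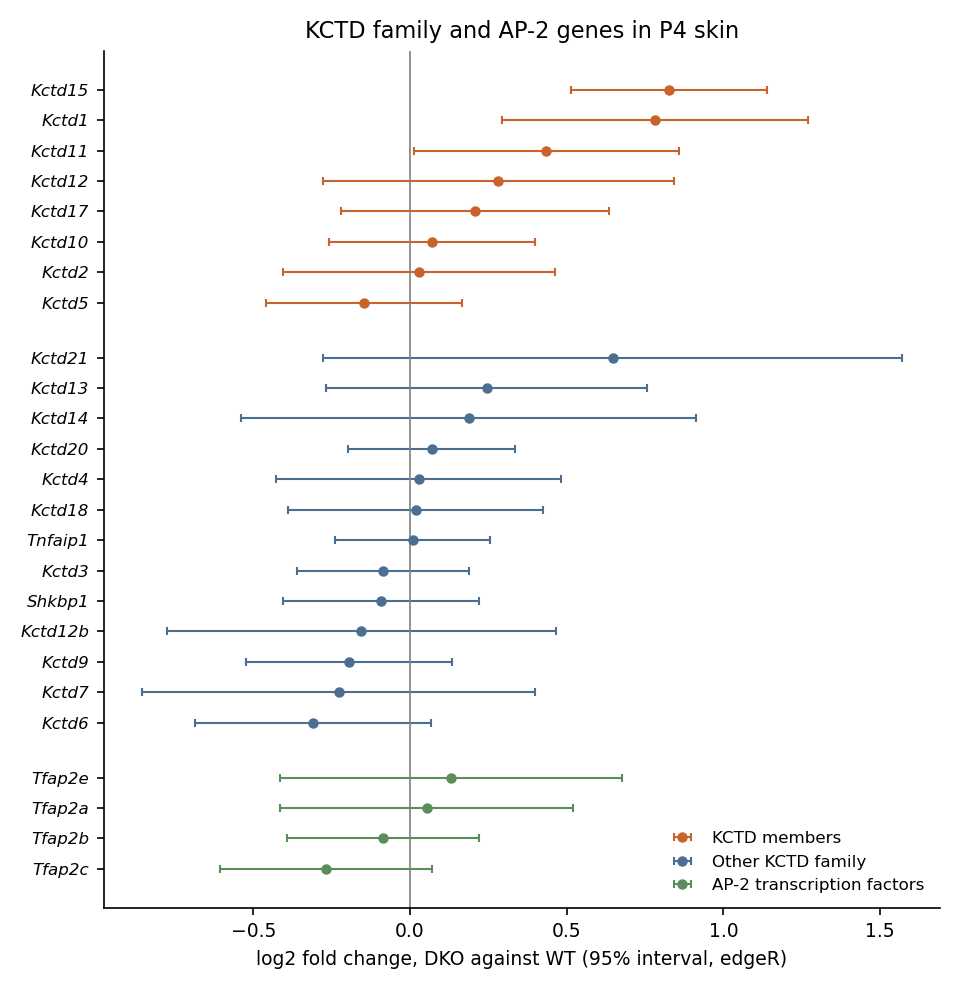
Log2 fold changes of DKO against WT P4 skin (edgeR) with 95% intervals for the 8 tested members, the 13 other tested genes of the KCTD family and 4 AP-2 genes. The intervals of *Kctd15*, *Kctd1* and *Kctd11* lie above 0, and all other intervals include 0.

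AP-2 factors are the transcription factors that KCTD1 and KCTD15 repress. Of their 5 genes, 4 were tested, 2 with a positive and 2 with a negative log2 fold change, and none passed an adjusted p of 0.05 in edgeR's test. *Tfap2a* had normalized counts of 4192, 4708 and 4038 in WT and 3158, 6019 and 4251 in DKO libraries. The DKO values spanned those of WT, with a log2 fold change of 0.05 (95% interval -0.41 to 0.52). *Tfap2b*, *Tfap2c* and *Tfap2e* had -0.09, -0.27 and 0.13. The groups of 1 tested gene of the list, *Tfap2c*, did not overlap, by a narrow margin. Its normalized counts were 650, 655 and 719 in WT and 475, 649 and 558 in DKO libraries (adjusted p = 0.798, edgeR). Beside it, 5.96% of all genes tested were without overlap and lower in DKO. *Tfap2d* had between 0 and 4 counts per library.

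All 14 genes of the CUL3 ligase list (the scaffold, its RING and NEDD8 machinery and other adaptors) were tested, 4 with a positive and 10 with a negative log2 fold change, median -0.05, and none had an unadjusted p under 0.05. *Nedd8*, which encodes the modifier that activates cullins, had the highest level at 710 ± 62.8 normalized counts per kilobase in WT and 689 ± 148 in DKO. *Nae1*, a subunit of the enzyme that activates NEDD8, had the smallest p, with normalized counts of 689, 671 and 618 in WT and 613, 402 and 590 in DKO libraries. Its groups were separate by a narrow margin, and the log2 fold change was -0.30 (adjusted p = 0.810, edgeR). With *Nae1*, 2 of the 14 genes were without overlap and lower in DKO, beside 5.96% of all genes. In the other direction 1 gene was without overlap, beside 7.24% of all genes.

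Of 9 genes of the GABA-B receptor and the channel it opens, 5 were tested, 4 with a positive log2 fold change and median 0.26. *Gabbr1*, the subunit that binds GABA, had the smallest p, with normalized counts of 694, 842 and 810 in WT and 922, 1124 and 843 in DKO libraries. The groups all but touched (log2 fold change 0.30, adjusted p = 0.749, edgeR). It was the 1 tested gene of the list without overlap and with DKO higher, beside 7.24% of all genes. *Gnb1*, a G protein β subunit, had the highest level, 880 ± 57.7 normalized counts per kilobase in WT and 921 ± 63.4 in DKO. *Gabbr2*, the partner needed for signaling, had 2 to 9 counts per library and was not tested.

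The 8 other partners of KCTD adaptors were all tested, 5 with a positive and 3 with a negative log2 fold change, median 0.09. *Myc*, a growth regulator, had the smallest p, with normalized counts of 764, 795 and 741 in WT and 631, 1302 and 861 in DKO libraries. Its DKO values spanned those of WT (log2 fold change 0.28, adjusted p = 0.905, edgeR). *Rhoa*, a GTPase of the cytoskeleton, had the highest level, 814 ± 20.6 normalized counts per kilobase in WT and 827 ± 136 in DKO. None of the AP-2, CUL3, GABA-B and other partner lists held a gene with an unadjusted p under 0.05 in edgeR's test or an adjusted p under 0.05 with edgeR or DESeq2.

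Of the 8 tested members, 7 had a larger coefficient of variation among the DKO libraries than among the WT libraries, the exception being *Kctd10* (10.8% in WT and 10.5% in DKO). It was 4.39% in WT and 32.3% in DKO for *Kctd1*, 2.08% and 14.3% for *Kctd15*, and 0.366% and 28.5% for *Kctd11*. Over 12330 tested genes with a mean normalized count of at least 100 the median of the coefficient was 7.79% and 17.3%. DKO replicate 2 was the highest of the 6 libraries for 6 of the 8 tested members, beside 29.4% of all tested genes. *Kctd12*, highest in DKO replicate 1, and *Kctd5*, highest in WT replicate 1, were the exceptions.

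Markers of several cell types differed in summed normalized counts along with the members, and in bulk skin fewer cells of a type and less RNA per cell cannot be told apart. The 14 keratinocyte markers were all detected and summed to 160900 to 165000 in WT and 186700 to 234500 in DKO libraries, 1.25 times as much on average. DKO replicate 2, with the highest counts of *Kctd1*, *Kctd15* and *Kctd11*, had the highest sum. *Krt1*, a keratin of differentiated keratinocytes, had the smallest p of the list (log2 fold change 0.79), while *Krt14*, *Krt5* and *Krt15*, keratins of basal cells, had 0.39, 0.11 and -0.60. Of the 14 markers, 10 had a positive and 4 a negative log2 fold change, with a median of 0.14. The sum is weighted towards the markers with the most counts. The groups of 3 did not overlap with DKO higher, beside 7.24% of all genes. The groups of 2, *Krt15* among them, did not overlap with DKO lower, beside 5.96% of all genes.

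The 19 skeletal muscle markers summed to 94920 to 108800 in WT and 153500 to 326800 in DKO libraries, all 19 with higher means in DKO, and *Tnni2*, a fast troponin, had the smallest p (log2 fold change 1.23). The highest sum was that of DKO replicate 1, in which *Kctd1* and *Kctd15* had their lowest DKO counts. With library sizes computed without these markers, the log2 fold changes were 0.76 for *Kctd1* and 0.81 for *Kctd15*. The 11 sebaceous gland markers summed to 31810 to 36990 in WT and 14090 to 23580 in DKO libraries, and *Scd1*, a fatty acid desaturase, had the smallest p (log2 fold change -1.31). None of these genes passed an adjusted p of 0.05 in edgeR's test, in which 14 of the 19 muscle markers (all higher in DKO, beside 4.96% of all genes) and 5 of the 11 sebaceous gland markers (all lower, beside 2.54% of all genes) had an unadjusted p under 0.05. With DESeq2, an adjusted p under 0.05 was reached by 1.07% of all genes, by 10 of the muscle markers, by *Scd1*, *Elovl3*, *Awat1* and *Soat1* of the sebaceous gland, by *Krt1* and by 2 of the 8 adipocyte markers, *Cfd* and *Retn*, whose log2 fold changes in edgeR were 1.09 and 1.42. Among the other lists reported here, sums over hair follicle, fibroblast, adipocyte, endothelial, melanocyte and immune markers overlapped between the groups, with mean ratios of DKO to WT of 0.675, 1.25, 1.04, 1.09, 0.982 and 1.21. No marker of these lists was at 0 throughout, and their part in the counts of the members was not tested.

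The profiles over the 6 libraries were compared with those of other tested genes by the root mean square difference of centred log2 normalized counts, over 11316 named genes. *Cd82*, *Ptpru* and *Flrt1* were nearest to *Kctd1*, at 0.12, 0.12 and 0.13 log2 units. *Flrt1*, *Tead2* and *Gata2* were nearest to *Kctd15*, at 0.11, 0.11 and 0.12. *Kctd15* itself lay 0.17 from *Kctd1*, and 10 of these genes (0.0884%) were nearer to *Kctd1* than *Kctd15* was. *Flrt1*, which encodes a transmembrane protein with leucine-rich repeats that can bind FGF receptors, was on both lists, with means of 501 ± 26.1 in WT and 971 ± 230 in DKO libraries (SD, n = 3). This likeness includes the difference between the groups and is a description of 6 libraries.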

How the data were processed

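The deposited values are counts per gene, whole numbers that the authors made without normalization. Per the labels, rRNA-depleted libraries were sequenced on an Illumina NovaSeq, and the submitters' processing notes name Trimmomatic 0.36, STAR 2.5.2b, featureCounts from Subread 1.5.2 and GRCm38. The builds recorded with the samples also include GRCh38, a human build, whereas the gene identifiers in the counts are those of mouse. The strand setting of the counting is not given in the sources used here. Samples were grouped by genotype and tissue as labelled. The table of 49315 genes was filtered (filterByExpr), scaled (TMM) and fitted with edgeR 4.0.16 (glmQLFit and glmQLFTest, R 4.3.3), and p-values were adjusted over all 20168 genes tested by Benjamini-Hochberg. DESeq2 1.42.0 was run as an alternative. Normalized counts were scaled from each effective library size to the mean of all. Counted lengths come from the count tables. Coding sequences, the first-numbered complete transcript of each gene, were aligned globally (match 1, mismatch -1, gap opening -4, gap extension -0.5). On simulated counts with 200 genes changed by 2 on the log2 scale, edgeR recovered 200 of 200 with 8 other calls. DESeq2 recovered 200 of 200 with 2 other calls. Recovery of log2 fold changes as small as those of the members was not tested. The likeness used log2(normalized count + 0.5) in genes with a mean of at least 100. Intervals and floors cover counting error and the spread of these libraries only.

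Members and gene lists were chosen with earlier results of these data known. The text names all members, all listed KCTD and AP-2 genes, the gene with the smallest p and the one with the highest level per kilobase of each other partner list, the smallest-p gene of the marker lists that are described (1 marker list is not reported here), and the 3 genes most like *Kctd1* and *Kctd15*. *Gabbr2*, *Krt14*, *Krt5*, *Krt15*, *Elovl3*, *Awat1*, *Soat1*, *Cfd* and *Retn* were added after their values were seen. Alternatives comprised other tools, scalings and filters, a block on the label number, and leaving out each library.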

Additional observations from a re-analysis of the deposited data

How the results depend on the processing

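The log2 fold changes of *Kctd1* and *Kctd15* were positive under all 15 alternatives run for each. Besides the fit without DKO replicate 1 (0.98, adjusted p = 0.0335, and 0.91, adjusted p = 0.0173, edgeR), an adjusted p under 0.05 was reached without a filter on low counts by *Kctd1* (0.76, adjusted p = 0.0306) and *Kctd15* (0.80, adjusted p = 0.00293), and with DESeq2 by *Kctd15* (0.81, adjusted p = 6.32e-04). The members past it numbered 2, 2 and 1 in these fits and 0 in the other 10. Leaving out 1 library gave 0.53 to 0.98 for *Kctd1*, 0.73 to 0.91 for *Kctd15*, and 0 to 2 members past the threshold. The single pair of one label number gave 0.19 and 0.57.

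Genes called were 14 in the fit reported, 154 with DESeq2, 22 with total counts, 210 without a filter, and 2 to 36 on leaving out 1 library. The mice are described as littermates, but the labels do not say that a label number marks a litter. Deviations from the group means correlated at -0.019 to 0.23 between same-numbered libraries of the genotypes and at -0.15 to -0.10 between the others. These deviations cancel out within each group, so the correlations are not independent of each other. Each library correlated best, among those of the other genotype, with one of its own number. That is a hint from the data and not from the design. A replicate block on this number gave 35 called genes, *Kctd1* 0.74 (adjusted p = 0.222, edgeR), *Kctd15* 0.82 (adjusted p = 0.0667) and no member past the threshold.

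Of 78 values for the other 6 tested members, 5 changed sign: *Kctd2* was -0.017 with total counts and ran from -0.12 (without DKO replicate 2) to 0.19 on leaving out 1 library, turning negative also without DKO replicate 3 (-0.018), and *Kctd10* ran from -0.029 (without WT replicate 3) to 0.14, turning negative also without DKO replicate 2 (-0.011). The median of the other KCTD family was -0.030 with total counts, -0.015 without a filter and -0.083 to 0.0028 on leaving out 1 library. Those of the other partners ran from -0.061 to 0.13, of AP-2 from -0.20 to 0.12, of the CUL3 list from -0.086 to -0.022 and of the GABA-B list from 0.15 to 0.38. The log2 ratio of *Kctd15* to *Kctd1* differed by -0.055 (without DKO replicate 1) to 0.22 on leaving out 1 library. The share of the pair was higher in DKO by 8.30 percentage points, and by 7.38 to 9.79 on leaving out 1 library. With all counts divided by the lengths not shared with another gene, it was higher by 7.32. That alternative was chosen after the data were seen. The causes of these changes were not tested. Depth limits *Kctd8* and *Kctd16*, which lay near the floor of 3 counts.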
